A study of Mus musculus with 8 samples.

Results

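Imprinted genes are expressed mainly or wholly from the chromosome copy inherited from one parent. The parental copies are told apart by DNA methylation set at a control region in the egg or sperm. That mark must then survive the wave of demethylation in the early embryo. TET1, which oxidises methylated cytosine, is known to take part in erasing such marks in germ cells, and many imprinted genes set growth before and shortly after birth. A fixed list of 36 imprinted genes, out of 55471 gene entries in the deposited count table, was followed here by locus, and all 36 were found by symbol. Of these, 10 are known in the mouse as expressed from the maternal copy, 24 from the paternal copy and 2 (Ube3a and Gnas) by tissue.

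The study compared Tet1 knockout (KO) with wild-type (WT) mice in bulk RNA sequencing of total RNA, read as 150-base pairs. Cells were sorted by flow cytometry from the femurs of neonates aged 3 to 5 days, as skeletal stem cells (SSC) and as the BCSP population, a progenitor thought to descend from SSC. The 4 groups were KO SSC, WT SSC, KO BCSP and WT BCSP, with 2 libraries each, whose titles number them round 1 and round 2. All 8 samples carry the strain name B6;129S4-Tet1tm1.1Jae/J, which names the targeted Tet1 allele and is given for WT as well, and no other allele or agent is named. No label tells if replicate libraries, or the SSC and BCSP of a round, were taken from separate animals or pools. The p-values therefore measure only the spread between these samples. In bulk RNA, fewer cells of a type and less RNA per cell cannot be told apart, and total counts do not show which parental copy a transcript came from.

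Libraries held 104782544 to 168004119 counts, and levels are given in CPM, counts scaled by TMM to a common library size, where 1 CPM stood for 110.697 to 143.414 counts. The cartilage collagen gene Col2a1 was abundant in every library and the cartilage regulator gene Sox9 was at 1095 to 1378 CPM, while the leukocyte gene Ptprc and the endothelial gene Tek, both used to exclude cells in such sorts, reached at most 1.08 and 0.391 CPM. Eng, a surface protein that separates the sorted populations, was at 2.53 to 3.89 CPM in SSC and 25.7 to 50.5 CPM in BCSP, which reflects the gate. Tet1 itself was at 7.26 and 11.8 CPM in KO SSC, against 15.6 and 19.6 CPM in WT SSC, and at 10.8 and 11.97 CPM in KO BCSP, against 21.6 and 10.98 CPM in WT BCSP. These counts cover the whole gene, including exons that a targeted allele may keep, and WT BCSP library 2 lay inside the KO range. The Y-linked genes Ddx3y, Eif2s3y, Uty and Kdm5d were each higher on average in KO than in WT, by 1.17, 1.08, 0.91 and 0.78 on the log2 scale, and Xist was at -1.14. None passed (edgeR adjusted p = 0.0753 for Ddx3y). All 5 had an unadjusted p under 0.05 by edgeR over both cell types, against 7.91% of all genes. So did all 5 in SSC, against 1.2%, and 3 of 5 in BCSP, against 6.19%. Whether KO and WT libraries differed in their mix of male and female cells was not tested, nor its part in the results below. WT BCSP library 2 and KO BCSP library 2 stood apart from the rest in a way that followed transcript length, described below. The KO over WT values of the genes named in BCSP are given with and without them where they moved most.

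Several of the imprinted transcripts carry microRNAs, and RefSeq places 45 mature microRNAs on the strand of 8 of the 36 genes in the build GRCm38.p6 (mm10). Mirg, a noncoding RNA of the Dlk1-Meg3 locus, holds 26 of them. The mature sequences of the hosts H19, Igf2 and Mest are shown because their hosts are among the abundant members, together with the pair from Mirg that shares a seed, the single seed found more than once among the 45. Capitals mark the seed, bases 2 to 8.
mmu-miR-675-5p (H19): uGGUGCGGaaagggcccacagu
mmu-miR-675-3p (H19): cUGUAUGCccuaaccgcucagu
mmu-miR-483-5p (Igf2): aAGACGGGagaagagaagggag
mmu-miR-483-3p (Igf2): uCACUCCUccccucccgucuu
mmu-miR-335-5p (Mest): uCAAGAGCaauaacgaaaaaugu
mmu-miR-335-3p (Mest): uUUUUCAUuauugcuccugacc
mmu-miR-453 (Mirg): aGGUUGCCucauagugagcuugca
mmu-miR-496a-5p (Mirg): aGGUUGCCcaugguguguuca
The libraries count long RNA, so these sequences describe the transcripts and not measured microRNA levels. The Mir675, Mir410 and Mir127 entries had 0 counts in all 8 libraries. These lie within or opposite H19, Mirg and Rtl1, and reads over more than 1 gene may not have been counted, so a 0 sets no limit there. Mir335 had 39 to 115 counts. No source used here tells whether strand was used in counting, so reads from overlapping antisense genes cannot be told apart for Igf2 with Igf2os, Ube3a with Snhg14, Gnas with Nespas or Rtl1 with its antisense microRNA genes. The same holds for Kcnq1ot1 with Kcnq1, Mest with Copg2, Zrsr1 with Commd1, Usp29 with Zim3 and Cdkn1c with Gm44732, among others.

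Promoter sequences, from 250 bases before to 50 bases after each RefSeq start in GRCm38.p6, were found for 30 of the 36 genes, in 45 windows. The KRAB zinc-finger protein ZFP57 protects imprints by binding the methylated hexamer TGCCGC. This hexamer, read on both strands (its complement is GCGGCA, and each holds a CG), was present in the windows of 11 of the 30 genes, or 36.7%, against 13.1% of 27025 genes. Counted per window, 12 of 45 (26.7%) held it, against 11.6% of 32851 windows of the same length. The 11 genes were Grb10, Igf2, Mcts2, Meg3, Mest, Nap1l5, Nnat, Plagl1, Snrpn, Snurf and Zim1. Snrpn and Snurf share the same window (chr7:60005150-60005449), so the same match counts for both genes. The 2 Mest windows that hold the hexamer overlap, with starts at 30737800 and 30737803, so they hold the same matches. The YY1 core CCATNTT, searched on both strands, occurred in 23.3% of the 30 genes and in 18.2% of all genes, and the median of the highest CG count per gene was 16 in the 30 genes and 8 in all. Since the hexamer holds a CG, its count is not independent of the CG count. A match describes the window and is no site of binding. The windows of Meg3 (chr12:109540746-109541045, plus strand), Ndn (chr7:62348027-62348326, plus strand) and Mest (chr6:30737800-30738099, plus strand) are printed, since Meg3 and Ndn had the highest and the lowest log2 fold change of KO over WT over both cell types, though no member passed, and Mest holds the hexamer at 2 places, with capitals on the hexamer.
Meg3: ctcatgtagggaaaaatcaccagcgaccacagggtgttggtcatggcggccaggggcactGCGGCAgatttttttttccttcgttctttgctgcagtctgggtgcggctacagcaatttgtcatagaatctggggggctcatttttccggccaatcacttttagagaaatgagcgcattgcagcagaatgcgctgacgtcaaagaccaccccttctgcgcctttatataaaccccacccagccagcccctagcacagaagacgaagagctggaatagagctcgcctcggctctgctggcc
Ndn: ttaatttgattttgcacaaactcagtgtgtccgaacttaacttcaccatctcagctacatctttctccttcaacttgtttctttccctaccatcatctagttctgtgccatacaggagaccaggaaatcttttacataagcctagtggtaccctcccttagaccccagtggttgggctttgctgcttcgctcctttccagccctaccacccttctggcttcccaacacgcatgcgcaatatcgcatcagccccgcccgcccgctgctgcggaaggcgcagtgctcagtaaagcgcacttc
Mest: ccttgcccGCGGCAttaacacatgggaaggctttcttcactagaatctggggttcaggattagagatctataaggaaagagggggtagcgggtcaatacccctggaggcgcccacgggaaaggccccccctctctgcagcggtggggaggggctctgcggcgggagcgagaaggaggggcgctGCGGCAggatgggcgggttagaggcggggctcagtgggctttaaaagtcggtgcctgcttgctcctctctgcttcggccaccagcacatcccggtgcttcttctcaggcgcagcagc
The Meg3 window holds the hexamer at 1 place and 13 CG, the Mest window 17 CG, and the Ndn window 11 CG with no hexamer.

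The imprinted genes made up 1.66 to 2.26% of all counts. A few members gave most of that share: 5 had a mean of at least 1000 CPM, a level that 74 genes in the table reached, 15 were at or above 100 CPM, 25 at or above 10 CPM and 31 at or above 1 CPM. H19, the maternal noncoding RNA beside Igf2 (chr7:142575529-142578143), averaged 7774 CPM, ranked 9 by CPM and 5 per kilobase of exon among all genes, and alone gave 29.2 to 52.0% of the members' counts. Dlk1, a transmembrane protein with EGF-like repeats that restrains adipocyte differentiation (chr12:109452823-109463336), averaged 2840 CPM. Per kilobase of exon, H19 was at 3160 CPM and Dlk1 at 502 CPM. They were followed, on the same scale, by Cdkn1c at 171, Plagl1 at 159, Peg3 at 132, Mest at 126 and Igf2 at 101 CPM per kilobase.

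At the other end, Snurf, which shares its transcript with Snrpn and overlaps it on the same strand, had 0 counts in every library. Snrpn, which encodes a spliceosome protein best known from neurons, was at 0.657 to 2.52 CPM. Reads over more than 1 gene may not have been counted, so the levels of Snurf and Snrpn may be too low. Exons of Snrpn also overlap Gm38393 on the same strand, and those of Igf2 overlap Gm49394. Slc22a18, Mkrn3, Nap1l5 and Rasgrf1 averaged 0.456, 0.289, 0.677 and 0.515 CPM. Of the 36 genes, 35 passed the filter on low counts and were tested, which leaves out Snurf.

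**Figure D1:**
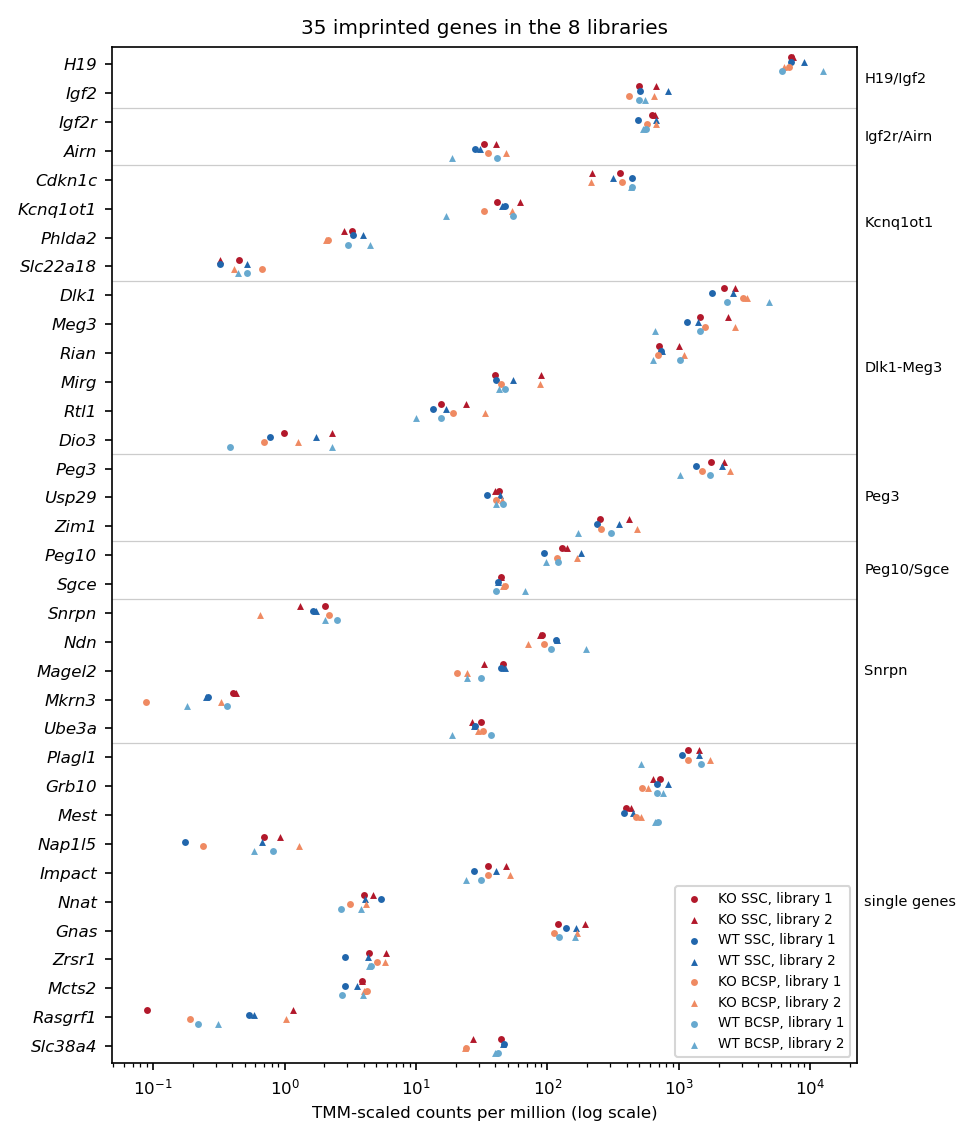
TMM-scaled CPM (log scale) of the 35 detected imprinted genes, grouped by locus, in each of the 8 libraries; circles are library 1 and triangles library 2 of a group. H19 lies near 7774 CPM on average and Mkrn3 near 0.289 CPM, and the 8 libraries of a gene mostly lie close together compared with the distance between genes.

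Members differed in how far they varied over the 8 libraries, whatever the group. Usp29, a ubiquitin protease gene at the Peg3 locus, varied least, with a coefficient of variation of 8.38% around 41.7 CPM. Igf2r, the receptor that removes IGF2 from the cell surface, came next in steadiness at 11.6% around 598 CPM. Rasgrf1, a guanine exchange factor gene, varied most, at 76.8% around 0.515 CPM. Among the abundant members Meg3 varied most, at 40.4%, with its highest library 4.04 times its lowest. The values of Meg3, a maternal noncoding RNA (chr12:109541001-109571726), were 1439 and 2340 CPM in KO SSC, 1148 and 1388 CPM in WT SSC, 1588 and 2670 CPM in KO BCSP, and 1447 and 661 CPM in WT BCSP.

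In KO SSC, no imprinted gene passed the test against WT SSC (edgeR quasi-likelihood test, Benjamini-Hochberg over 22153 genes, threshold 0.05). Across all genes the background was 0.00451%, a single gene. No member reached an unadjusted p under 0.05 by edgeR either, against 1.2% of all genes. The members' median log2 fold change was 0.08, with 22 above 0 and 13 below, and the median of all genes was 0.01 with 51.3% above 0 and 48.6% below.

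At the Dlk1-Meg3 locus all 6 of 6 tested members lay above 0 in KO SSC, with a median of 0.38, as did 3 of 3 at the Peg3 locus (median 0.19) and 2 of 2 at Igf2r/Airn (0.24). Meg3 was at 0.58 ± 0.40 (SE), Rtl1, a paternally expressed gene derived from a retrotransposon, at 0.38 ± 0.33, and Mirg at 0.44 ± 0.38. Dlk1 was at 0.15 ± 0.36. None of these passed (edgeR adjusted p = 1 for each). Outside the locus, low p-values among the higher genes were those of Zrsr1, a U2AF-related splicing factor gene, at 0.51 ± 0.33, and Nap1l5, a nucleosome assembly gene, at 0.93 ± 0.84. Some signs at the Dlk1-Meg3, Peg3 and Igf2r/Airn loci depended on single libraries. Without KO SSC library 2, Rian was at -0.08, Mirg at -0.26, Dio3 at -0.37 and Zim1 at -0.24. Without WT SSC library 1, Dlk1 was at -0.09, Peg3 at -0.09, Usp29 at -0.08 and Igf2r at -0.07. Meg3, Rtl1 and Airn stayed above 0 when any library was left out.

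On the lower side in KO SSC stood Slc38a4, an amino acid transporter gene, at -0.37 ± 0.24, and Ndn, the necdin gene (chr7:62346569-62350262), at -0.40 ± 0.28. Cdkn1c, the inhibitor of cyclin-dependent kinases also called p57, was at -0.39 ± 0.33, Magel2 at -0.24 ± 0.24 and Phlda2 at -0.27 ± 0.36. The leading genes of the remaining loci were close to 0: H19 -0.14 ± 0.35, Igf2 -0.19 ± 0.32, Peg3 0.19 ± 0.36, Mest -0.01 ± 0.24, Grb10 -0.16 ± 0.25, Snrpn -0.02 ± 0.54 and Gnas 0.06 ± 0.29. In 10 of the 35 members, or 28.6%, the KO and WT libraries did not overlap, against 27.6% of all genes.

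**Figure D2:**
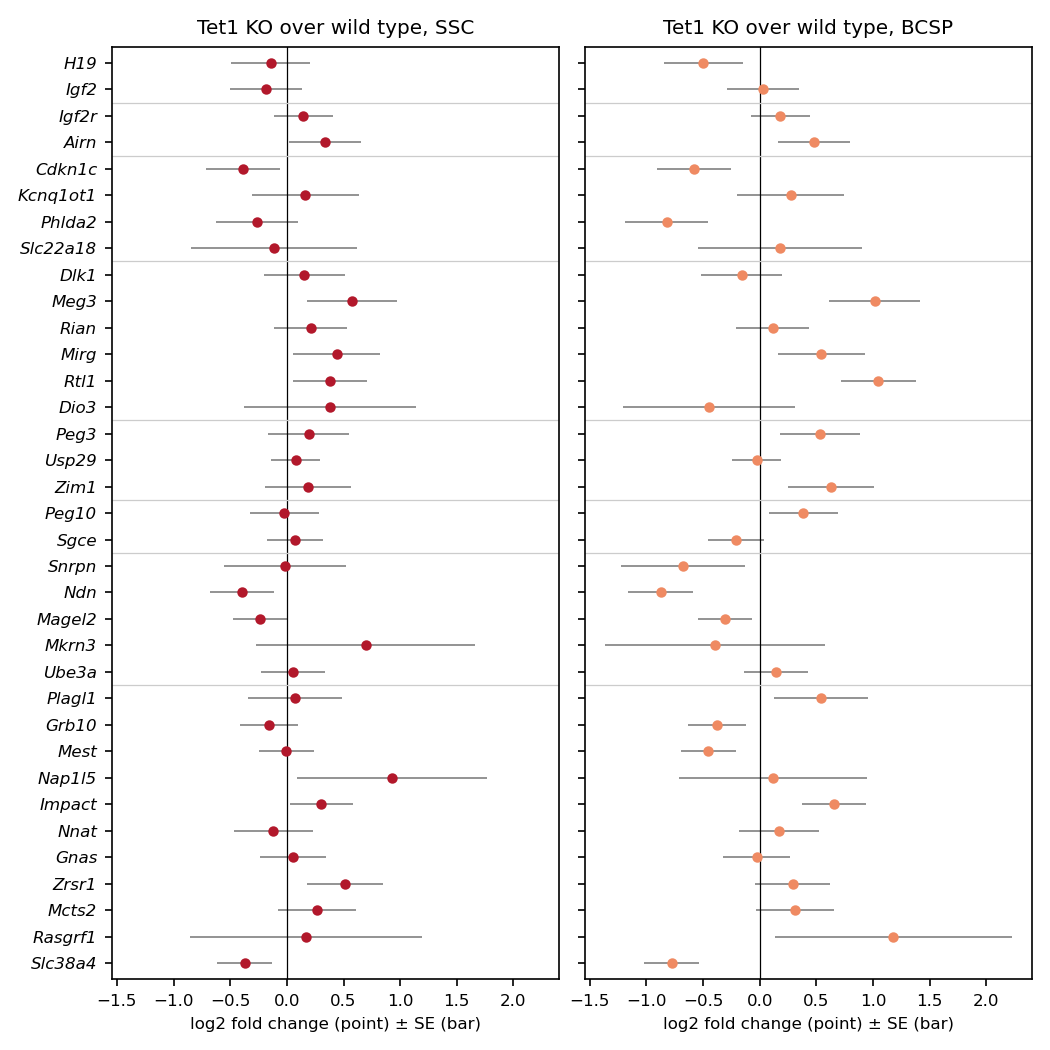
Log2 fold change of KO over WT (point) with its standard error (bar) for 35 imprinted genes in SSC (left) and BCSP (right), genes ordered by locus as in the plot of levels. Most bars cross 0 in SSC; in BCSP Meg3 and Rtl1 lie near 1.0 and Ndn, Phlda2 and Slc38a4 near -0.8, and no gene passed the adjusted threshold in either population.

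In KO BCSP, again no imprinted gene passed against WT BCSP, with the same background of 0.00451%. Single genes lay further from 0 than in SSC: 6 of 35 members (17.1%) had an unadjusted p under 0.05 by edgeR, against 6.19% of all genes. Of these, 3 were higher, against 3.23% of all genes, and 3 lower, against 2.96%. The edgeR adjusted p of all 6 was 0.686. The members' median was 0.12, with 20 above 0 and 15 below, and that of all genes 0.01, with 50.5% above and 49.2% below.

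On the higher side, Rtl1 had 19.1 and 33.5 CPM in KO BCSP, against 15.4 and 10.02 CPM in WT BCSP. That is 26.3 ± 10.2 and 12.7 ± 3.84 CPM (SD, n = 2 each) and a log2 fold change of 1.05 ± 0.33 (SE). Meg3 averaged 2129 ± 766 CPM in KO BCSP and 1054 ± 556 CPM in WT BCSP, at 1.01 ± 0.40. Both KO libraries lay above both WT libraries, and in each gene the gap was carried by library 2 of each genotype, the highest and the lowest of the 4.

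The paternally expressed gene Impact, a regulator of protein synthesis under stress, was at 35.01 and 52.3 CPM in KO BCSP and 31.5 and 24.1 CPM in WT BCSP, at 0.65 ± 0.28. The zinc-finger gene Zim1 (0.63 ± 0.38) and Airn, the noncoding RNA that silences paternal Igf2r (0.48 ± 0.32), followed with wider errors.

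On the lower side, Slc38a4 had 23.8 and 23.7 CPM in KO BCSP, against 41.7 and 39.7 CPM in WT BCSP, with the libraries of each group close together. Its log2 fold change was -0.78 ± 0.24 (SE), with an unadjusted p of 0.0073 (edgeR adjusted p = 0.686). Ndn had 94.3 and 71.2 CPM in KO BCSP, against 107 and 196 CPM in WT BCSP, at -0.87 ± 0.28. Phlda2, a pleckstrin-homology gene that limits placental growth, was at 2.15 and 2.08 CPM in KO BCSP, against 3.03 and 4.44 CPM in WT BCSP, at -0.82 ± 0.36. Cdkn1c stood at 370 and 214 CPM in KO BCSP, against 439 and 432 CPM in WT BCSP (-0.58 ± 0.33). Mest, an alpha/beta-hydrolase gene of the mesoderm, stood at 467 and 512 CPM in KO BCSP, against 690 and 652 CPM in WT BCSP (-0.45 ± 0.24). In each of these 5 genes both KO libraries lay below both WT libraries.

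The other leading genes were at -0.50 ± 0.35 for H19, 0.03 ± 0.32 for Igf2, -0.16 ± 0.36 for Dlk1, 0.53 ± 0.36 for Peg3, -0.38 ± 0.25 for Grb10, -0.68 ± 0.54 for Snrpn and -0.03 ± 0.29 for Gnas. Counted over all 35, 13 members (37.1%) had KO and WT libraries that did not overlap in BCSP, against 33.3% of all genes, so the share of such members was near the background.

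These BCSP values depended on the libraries of round 2. Without WT BCSP library 2, Meg3 was at 0.56, Rtl1 at 0.77, Impact at 0.48, Ndn at -0.37 and Phlda2 at -0.52. Without KO BCSP library 2, Meg3 was at 0.59, Rtl1 at 0.58, Impact at 0.33 and Cdkn1c at -0.24. With both BCSP libraries of round 2 left out, Meg3 was at 0.14, Rtl1 at 0.31, Impact at 0.16, Ndn at -0.18, Phlda2 at -0.50 and Cdkn1c at -0.24. Slc38a4 was at -0.81 without WT BCSP library 2 and at -0.80 without both, and Mest at -0.49 and -0.56.

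Other genes moved too with these libraries left out, and several took the other sign in at least 1 such fit. Without WT BCSP library 2, H19 was at 0.12, Dlk1 at 0.47, Gnas at 0.20, Peg3 at 0.20, Airn at 0.02 and Zim1 at 0.27. Without both BCSP libraries of round 2, H19 was at 0.18, Dlk1 at 0.41, Igf2 at -0.25, Peg3 at -0.19, Airn at -0.22 and Zim1 at -0.26. Snrpn was at -0.06 without KO BCSP library 2, and Grb10 lay between -0.45 and -0.29 under the 3 omissions. In all, 16 of 35 members took the other sign when both libraries were left out.

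Of the 8 libraries, those 2 had the rho with transcript length farthest from 0 over all genes. Across 12636 genes with a mean of at least 1 CPM, the deviation of WT BCSP library 2 from the mean of the 8 libraries had a Spearman rho of -0.498 with exon length, and the 35 members gave -0.495. In KO BCSP library 2 the values were 0.357 over all genes and 0.379 over the members. In the other 6 libraries rho lay between -0.244 (WT SSC library 1) and 0.225 (KO SSC library 2) over all genes, and between -0.269 (KO SSC library 1, 0.0432 over all genes) and 0.286 (KO SSC library 2) over the members. The fold changes of KO over WT had a rho with length of 0.209 in SSC, 0.401 in BCSP and 0.365 over both for all genes, and of 0.177, 0.404 and 0.339 for the members. These are descriptions across genes that share libraries, and the genes are not replicates. The 16 members with at least 6000 bases of exon had a median deviation of 0.41 in KO BCSP library 2 and -0.38 in WT BCSP library 2, and the 19 shorter ones 0.10 and 0.12. The KO over WT fold changes of members in BCSP had a median of 0.33 in the longer group and -0.31 in the shorter, against 0.12 and -0.18 over all genes.

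Kcnq1ot1, the noncoding RNA with the longest exon sequence of the list at 93092 bases, deviated by -1.30 in WT BCSP library 2, Meg3 by -1.15 and the zinc-finger gene Plagl1 by -1.20. The shorter transcripts of Dio3, Ndn, Dlk1 and H19 deviated there by 1.02, 0.89, 0.82 and 0.72. Like Meg3, the summed level of 8 nuclear noncoding RNAs outside the list, among them Malat1 and Neat1, was lowest in WT BCSP library 2. Its 2 highest values were in library 2 of KO SSC and of KO BCSP, as for Meg3. The sum was 1566 and 2807 CPM in KO SSC and 1666 and 1865 CPM in WT SSC. In BCSP it was 1483 and 2683 CPM in KO and 1490 and 777 CPM in WT. The 8 genes did not all move alike. In KO over WT in BCSP, 4 of them lay above 0 and 4 below, between -2.55 and 2.50. With an offset for length in the model, Meg3 in BCSP was at 0.73, Ndn at -0.76 and Slc38a4 at -0.72, and Cdkn1c at -0.39. No member passed under it either. The part of length or RNA quality in these values was not tested beyond that offset.

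**Figure D3:**
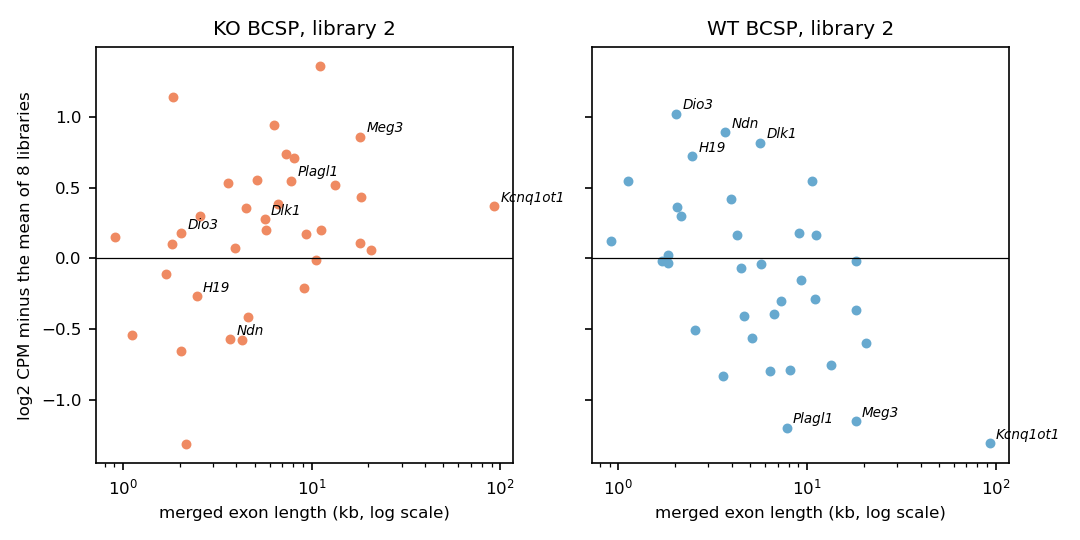
Deviation of each imprinted gene's log2 CPM from its mean over the 8 libraries (vertical axis) against merged exon length in kilobases (horizontal axis, log scale), in KO BCSP library 2 (left) and WT BCSP library 2 (right); each point is 1 of 35 genes. Points fall with length in WT BCSP library 2 (Spearman -0.495) and rise with length in KO BCSP library 2 (0.379).

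Over both cell types, in a model with cell type and genotype, no imprinted gene passed, against a background of 0.0135%. At an unadjusted p under 0.05 by edgeR were 7 members (20%), against 7.91% of all genes. The members' median was 0.10, with 22 above 0 and 13 below, where 51.6% of all genes lay above and 48.4% below. Higher in KO were 3 members, against 3.95% of all genes, Meg3 at 0.79 ± 0.27 (SE), Rtl1 at 0.71 ± 0.24 and Impact at 0.48 ± 0.19, with edgeR adjusted p of 0.61, 0.609 and 0.614. Next on that side were Mirg at 0.49 ± 0.25 and Airn at 0.41 ± 0.21. Lower in KO were 4 members, against 3.96% of all genes, Slc38a4 at -0.57 ± 0.17, Ndn at -0.64 ± 0.20, Cdkn1c at -0.48 ± 0.22 and Phlda2 at -0.54 ± 0.25, with edgeR adjusted p of 0.596, 0.608, 0.626 and 0.628. Magel2 followed at -0.27 ± 0.15. Without a filter on low counts Meg3, Rtl1 and Ndn passed (edgeR adjusted p 0.0278, 0.0244 and 0.0445), against 0.706% of all genes in that fit, 0.383% higher and 0.323% lower. The adjusted p of these 3 genes was between 0.171 and 1 in the other 14 alternatives. The fit without a filter counted the spread between libraries as better known, which lowers p at a like estimate. For the Zfp57 gene it gave 0.81 ± 0.20 (SE) with an edgeR unadjusted p of 2.97e-05. With the filter the values were 0.81 ± 0.19 and 0.000713. With 2 libraries per group, calls of the unfiltered fit may be too many. Without both BCSP libraries of round 2, Meg3 was at 0.43, Rtl1 at 0.36, Impact at 0.26, Mirg at 0.26, Airn at 0.15, Ndn at -0.33, Phlda2 at -0.34, Cdkn1c at -0.34 and Slc38a4 at -0.52. Without WT BCSP library 2 alone, Ndn was at -0.39, and without KO BCSP library 2 alone, Rtl1 was at 0.46.

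Ndn was the single member whose 4 KO libraries all lay below its 4 WT libraries, where 2.25% of all genes did so and 4.37% did so in either direction. It had 91.5 and 87.7 CPM in KO SSC and 94.3 and 71.2 CPM in KO BCSP, against 117 and 119 CPM in WT SSC and 107 and 196 CPM in WT BCSP. The KO libraries thus lay between 71.2 and 94.3 CPM, and the lowest WT library at 107 CPM. No member had all 4 KO libraries above all 4 WT libraries.

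Compared within a round and a cell type, KO was higher than WT in all 4 pairs for Meg3, Rtl1, Impact, Zrsr1 and Mcts2, which is 14.3% of the members against 10.6% of all genes. KO was lower in all 4 pairs for Cdkn1c, Phlda2, Ndn and Slc38a4, 11.4% against 9.86%. The sizes were uneven. The log2 differences of Meg3 were 0.33 and 0.75 in SSC of rounds 1 and 2, and 0.13 and 2.01 in BCSP of rounds 1 and 2. Those of Ndn were -0.35 and -0.44 in SSC, and -0.18 and -1.46 in BCSP. Slc38a4 had -0.07 and -0.75 in SSC, and -0.81 and -0.74 in BCSP.

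The growth factor gene Igf2 and its partner H19 did not separate by genotype. Igf2 averaged 560 ± 122 CPM in KO and 596 ± 159 CPM in WT libraries (SD, n = 4 each), at -0.08 ± 0.21 (SE), and H19 6913 ± 453 CPM in KO and 8636 ± 2808 CPM in WT, at -0.32 ± 0.23. Without WT BCSP library 2, H19 was at -0.04, Dlk1 at 0.28, Peg3 at 0.20 and Gnas at 0.11. Dlk1 was at -0.00 ± 0.24, Gnas, which encodes the stimulatory G protein alpha subunit, at 0.01 ± 0.19, Peg3 at 0.36 ± 0.24, Mest at -0.23 ± 0.16, Snrpn at -0.35 ± 0.37 and Grb10, an adaptor that dampens insulin and IGF receptor signalling, at -0.27 ± 0.16. Split by the copy expressed, the 10 maternally expressed genes had a median of 0.10 and the 23 tested paternally expressed genes one of 0.16, beside 0.02 for all genes.

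Markers of other cells were set beside these values. Endothelial markers lay above 0 in KO over WT in 5 of 5 tested, with sums of 0.834 to 2.91 CPM in KO and 0.314 to 1.14 CPM in WT libraries. Pericyte and smooth muscle markers did so in 6 of 6, with sums of 42.2 to 60.2 CPM in KO and 37.7 to 58.9 CPM in WT. Erythroid markers lay below 0 in 6 of 7, with sums of 2.45 to 17.9 CPM in KO and 3.14 to 41.1 CPM in WT. The highest erythroid sum was in WT SSC library 1. Within SSC, 3 of 5 endothelial and 4 of 6 pericyte and smooth muscle markers lay above 0, and 7 of 7 erythroid markers below. Within BCSP all tested markers of these lists lay above 0. Over both cell types, 2 of 2 lymphoid markers lay below 0. The lymphoid list summed to 43.3 CPM in WT SSC library 1, 35.7 CPM in WT BCSP library 1 and at most 9.55 CPM elsewhere. Osteoblast and skeletal muscle markers lay above 0 in 2 of 6 and 3 of 6. None of these lists had a gene past the threshold, and their part in the imprinted genes' values was not tested.

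**Figure D4:**
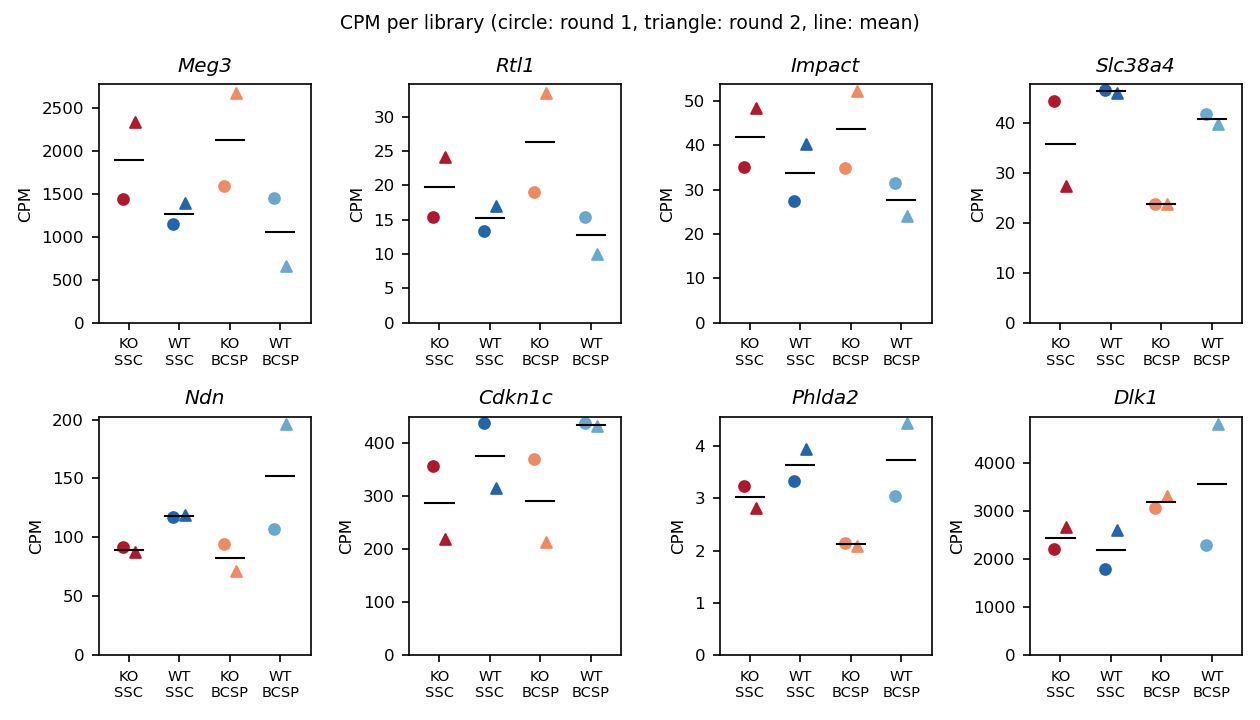
CPM per library of the 7 imprinted genes with an unadjusted p under 0.05 over both cell types, and of Dlk1; circles are round 1, triangles round 2, black lines group means of 2 libraries, vertical axes start at 0. Ndn in the 4 KO libraries lies at or below 94.3 CPM and in the 4 WT libraries at or above 107 CPM, while the spread of Meg3 and Rtl1 in BCSP comes mainly from round 2.

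Whether the KO difference itself differed between SSC and BCSP was tested as an interaction, SSC minus BCSP. None of the 35 members passed and none had an unadjusted p under 0.05 by edgeR, where 1.27% of all genes did, 0.871% on the negative side. Of the members 18 lay above 0 and 17 below, against 52.9% and 47.1% of all genes. The lowest p-values were those of Rtl1 at -0.67 ± 0.46 (SE), Mest at 0.45 ± 0.34, Ndn at 0.48 ± 0.40 and Slc38a4 at 0.41 ± 0.34 (edgeR adjusted p = 1 for each). On the positive side followed Phlda2 at 0.55 ± 0.51 and Snrpn at 0.66 ± 0.77, on the negative side Peg10, Impact, Zim1 and Plagl1 between -0.47 ± 0.59 and -0.35 ± 0.40. The interaction was -0.44 ± 0.56 for Meg3, 0.35 ± 0.49 for H19, 0.31 ± 0.50 for Dlk1, -0.22 ± 0.45 for Igf2 and 0.19 ± 0.46 for Cdkn1c. It was -0.34 ± 0.50 for Peg3, 0.22 ± 0.36 for Grb10 and 0.08 ± 0.42 for Gnas. With both BCSP libraries of round 2 left out, 20 of 35 members took the other sign, among them Rtl1 at 0.07, Meg3 at 0.44 and Ndn at -0.22, while Mest was at 0.55 and Slc38a4 at 0.43.

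At loci where neighbours are expressed from opposite parental copies, the ratio of the pair cancels what both share within a library. Dlk1 over Meg3 was 0.51 ± 0.34 on the log2 scale in KO and 1.27 ± 1.07 in WT libraries (SD, n = 4 each), a difference of -0.75 (exact permutation test within cell type, two-sided, p = 0.167, adjusted over 5 ratios 0.695). The WT values were 0.64 and 0.90 in SSC and 0.67 and 2.86 in BCSP, and without WT BCSP library 2 the difference was -0.20. Cdkn1c over Kcnq1ot1 was 2.60 ± 0.83 in KO and 3.42 ± 0.85 in WT, a difference of -0.82 (exact p = 0.278), and of -0.40 without WT BCSP library 2, whose value of 4.67 was the highest. Igf2r over Airn differed by -0.28 (exact p = 0.444), or -0.01 without that library. Igf2 over H19 differed by 0.19 (exact p = 0.667), or -0.04 without it. Peg3 over Zim1 was the steadiest, at 2.53 ± 0.21 in KO and 2.54 ± 0.06 in WT, a difference of -0.01 (exact p = 0.889). With 36 arrangements the smallest possible p was 0.0556, so no ratio could pass 0.05.

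Among 28 genes that set, read or guard imprints, 25 were tested and none passed for genotype in SSC, in BCSP or over both. Over both cell types, 1 of the 25 was higher (Zfp57) and 1 lower (Tet1, the targeted gene) at an unadjusted p under 0.05 by edgeR. Of all genes, 3.95% were higher and 3.96% lower, so the counts of this list were near the background. Zfp57, whose protein keeps methylation at imprinting control regions, had 14.1 and 20.4 CPM in KO SSC and 15.3 and 20.99 CPM in KO BCSP, against 9.67 and 10.9 CPM in WT SSC and 11.5 and 8.26 CPM in WT BCSP. Its 4 KO libraries lay above its 4 WT libraries, as did those of 2.13% of all genes, at a log2 fold change of 0.81 ± 0.19 (SE; edgeR unadjusted p = 0.000713, adjusted p = 0.351). KO was higher in all 4 pairs of a round and cell type, by 0.54 and 0.91 in SSC and 0.42 and 1.34 in BCSP, and the value was 0.64 with both BCSP libraries of round 2 left out. DESeq2 gave Zfp57 an adjusted p of 0.0261 and edgeR without a filter one of 0.00793, and the other alternatives gave 0.143 to 0.965. The fit without a filter carries the limit given above, that it counted the spread as better known. Tet1 was at -0.70 ± 0.23 and the related dioxygenase genes Tet2 and Tet3 at 0.57 ± 0.27 and 0.35 ± 0.17.

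Of 41 other imprinted genes in the table, 34 were tested, and none passed for genotype. The lowest p over both cell types was that of Tfpi2, a protease inhibitor gene known as imprinted in mouse placenta, at -1.48 ± 0.54 (edgeR adjusted p = 0.614). Of 12 genes of IGF2 response and regulation, 10 were tested and none passed or had an unadjusted p under 0.05 by edgeR over both cell types. Igf2bp1, which encodes an RNA-binding protein of Igf2 mRNA, was at 0.94 ± 0.51 and the E2f3 gene at 0.28 ± 0.16.

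Between the sorted populations, no imprinted gene passed for SSC against BCSP (background 0.00451%, which is Eng). At an unadjusted p under 0.05 by edgeR were 4 members (11.4%), against 3.71% of all genes, 2 of them higher (1.88% of all genes) and 2 lower (1.83%). The members' median was 0.05, with 19 above 0 and 16 below, where 51.8% of all genes lay above and 48.2% below. Magel2, a MAGE-family gene next to Ndn (chr7:62377010-62381640), had 45.5 and 32.9 CPM in KO SSC and 44.7 and 47.8 CPM in WT SSC, against 20.6 and 24.3 CPM in KO BCSP and 31.0 and 24.5 CPM in WT BCSP. All 4 SSC libraries lay above all 4 BCSP libraries, at 42.7 ± 6.69 and 25.1 ± 4.33 CPM (SD, n = 4 each). Its log2 fold change was 0.77 ± 0.15 (SE), rank 13 by p among all genes, with an edgeR adjusted p of 0.362. DESeq2 gave Magel2 an adjusted p of 0.00869 (0.176% of all genes called, 0.0632% higher), and edgeR without a filter one of 0.00558 (0.199%, 0.0784% higher). The other alternatives gave it 0.118 to 1. The fit without a filter has the same limit here as for genotype.

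Mest lay the other way, with 398 and 430 CPM in KO SSC and 384 and 448 CPM in WT SSC, against 467 and 512 CPM in KO BCSP and 690 and 652 CPM in WT BCSP. Its SSC libraries all lay below its BCSP libraries, at -0.47 ± 0.16 (edgeR adjusted p = 1). Magel2 and Mest were the members without overlap, 5.71% against 2.53% of all genes (1.48% higher and 1.05% lower). Slc38a4 was at 0.39 ± 0.17 and Dlk1 at -0.54 ± 0.24. Dlk1 had 2313 ± 403 CPM in SSC and 3367 ± 1051 CPM in BCSP, and without WT BCSP library 2 it was at -0.26.

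The remaining members showed smaller differences between SSC and BCSP. Nnat was at 0.39 ± 0.23, Igf2 at 0.24 ± 0.21 and Grb10 at 0.18 ± 0.16 on the higher side. Sgce, Zrsr1 and Slc22a18 were at -0.22 ± 0.17, -0.19 ± 0.22 and -0.33 ± 0.48. Without WT BCSP library 2, Sgce was at -0.02 and H19 at 0.24. Meg3 was at 0.05 ± 0.27, H19 at -0.04 ± 0.23, Cdkn1c at -0.11 ± 0.22, Peg3 at 0.18 ± 0.24, Snrpn at -0.10 ± 0.37 and Gnas at 0.13 ± 0.19.

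The titles number 2 rounds in every group, without saying what a round stands for. In round 2 against round 1, 25 of 35 members lay above 0 in KO SSC, 29 in WT SSC and 25 in KO BCSP, against 50, 50.5 and 48.7% of all genes in these groups. In WT BCSP, whose library 2 stood apart, 12 of 35 did, against 49.6% of all genes. Over all groups the members' median was 0.18, with 27 of 35 (77.1%) above 0 against 50.7% of all genes.

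No member passed for round over all 8 libraries, where 2.15% of all genes did, and 7 (20%) had an unadjusted p under 0.05 by edgeR, against 13.3%. Dio3, which encodes the deiodinase that inactivates thyroid hormone, was nearest to the threshold, at 1.47 ± 0.35 (SE; edgeR adjusted p = 0.0507). It had 2.29 and 1.74 CPM in the SSC libraries of round 2 (KO, then WT) and 1.26 and 2.29 CPM in the BCSP libraries of round 2, against 0.985 and 0.771 CPM in SSC and 0.702 and 0.385 CPM in BCSP of round 1. All 4 libraries of round 2 lay above all 4 of round 1. The same held for Gnas, at 172 ± 14.7 CPM in round 2 and 123 ± 10.3 CPM in round 1 (SD, n = 4 each; 0.48 ± 0.13, edgeR adjusted p = 0.0843), and for Igf2, at 676 ± 117 CPM in round 2 and 480 ± 40.5 CPM in round 1 (0.49 ± 0.14, edgeR adjusted p = 0.123). These 3 genes are 8.57% of the members, against 4.01% of all genes that were higher without overlap.

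Mirg (0.61 ± 0.19), Dlk1 (0.50 ± 0.17) and Rasgrf1 (1.54 ± 0.67) were also higher in round 2, with edgeR adjusted p of 0.147, 0.204 and 0.336. Igf2, Dlk1, Dio3, Gnas and Rasgrf1 lay above 0 in each of the 4 groups, 14.3% of members against 11% of all genes. On the lower side Cdkn1c, at 295 ± 103 CPM in round 2 and 401 ± 43.3 CPM in round 1, was at -0.50 ± 0.16 (edgeR adjusted p = 0.153). Ube3a was at -0.33 ± 0.16, Snrpn at -0.61 ± 0.33, Slc38a4 at -0.21 ± 0.16 and Magel2 at -0.12 ± 0.15. H19 was at 0.32 ± 0.19, Meg3 at 0.19 ± 0.26, Peg3 at 0.25 ± 0.22, Mest at 0.09 ± 0.15 and Grb10 at 0.10 ± 0.14.

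DESeq2 called 5 members over all 8 libraries, against 5.09% of all genes: Igf2, Dlk1, Dio3 and Gnas higher (3.18% of all genes) and Cdkn1c lower (1.91%). A single library decided the edgeR counts. Without WT BCSP library 2, 14 of 35 members passed by edgeR, against 17.1% of all genes. Of these, 13 rose in round 2, namely Igf2, Dlk1, Meg3, Mirg, Rtl1, Dio3, Peg3, Zim1, Plagl1, Peg10, Impact, Gnas and Rasgrf1, against a background of 8.39% of all genes, and Cdkn1c fell, against 8.74%. Within the 4 SSC libraries alone, 12 of 35 passed, 11 of them higher, against 9.07% of all genes and 5.19% higher, and the higher ones included all but Plagl1 and Rasgrf1 of the 13. Within the 4 BCSP libraries alone, none of the 35 passed, against 0.245% of all genes. Each fit to 4 libraries left fewer residual degrees of freedom than the 4 of the fit to all 8. Its p-values nonetheless counted the spread as nearly known, from a pool over all genes. In SSC alone, Tet1 at 0.53 ± 0.18 (SE) thereby had an edgeR unadjusted p of 0.00329. The 12 of 35 members and 9.07% of all genes may therefore be too many.

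Other measures moved with the rounds. Osteoblast markers were lower in round 2 in all 6 of 6 genes tested (median -0.88; summed level 115 to 198 CPM in round 2 and 215 to 290 CPM in round 1), and neutrophil markers in all 7 of 7 (median -5.49; 0.139 to 1.41 CPM in round 2 and 11.4 to 179 CPM in round 1). Cd200, a gene of the sort gate, fell in round 2, at 24.2 to 37.3 CPM, against 44.9 to 67.2 CPM in round 1 (edgeR adjusted p = 0.00602). The part of these in the imprinted genes' values was not tested. Among the other imprinted genes, Tfpi2 rose in round 2 by 1.51 ± 0.33 (edgeR adjusted p = 0.0317), 1 of the 34 tested, against 1.4% of all genes.

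**Figure D5:**
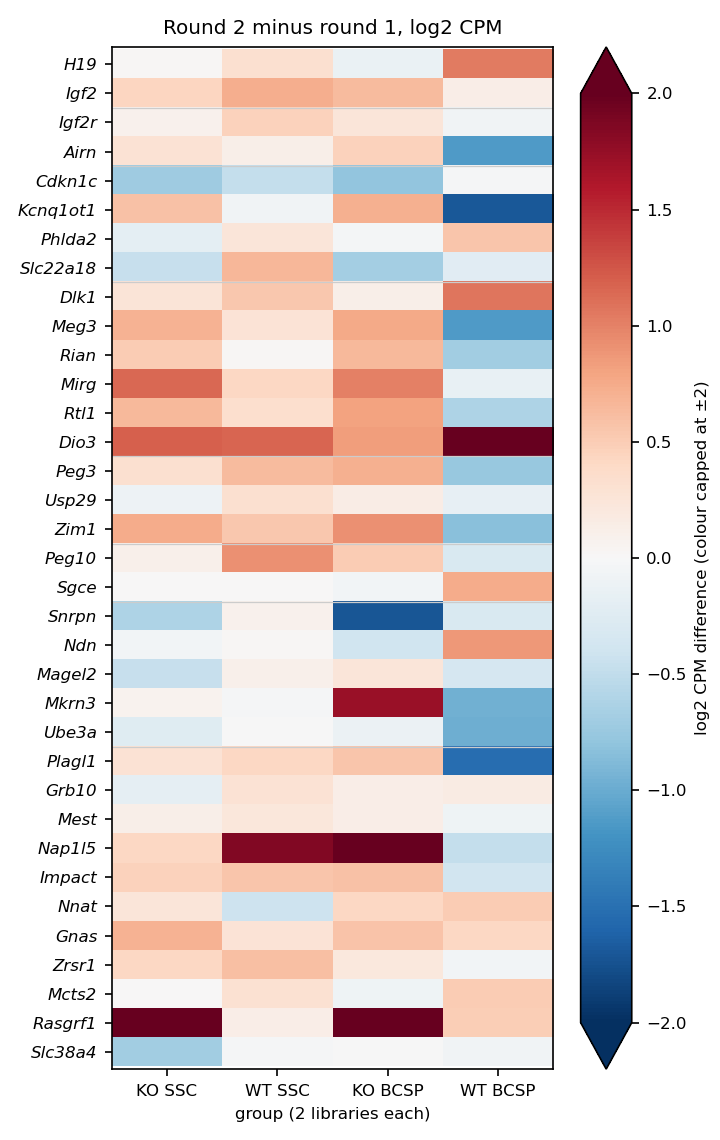
Log2 CPM of round 2 minus round 1 for 35 imprinted genes (rows, by locus) in the 4 groups (columns, 2 libraries each); red is higher in round 2, blue lower, and colours are capped at 2. Red prevails in KO SSC (25 of 35), WT SSC (29) and KO BCSP (25), while WT BCSP is mixed (12), and Dio3 is red in all 4 columns.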

How the data were processed

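Bulk RNA of SSC and BCSP from Tet1 KO and WT femurs was measured in 8 libraries. The deposited table holds whole-number counts per gene. The builds and tools listed, per the submitters' processing notes, are mm10 with STAR, featureCounts and DESeq2, without versions. The file's title names htseq instead, so it is unsettled which program counted. Strand and annotation release were not found in any label. Column names were matched to titles, SCC read as SSC and BCP as BCSP. No value column was left unmapped.

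From these counts, edgeR 4.0.16 (R 4.3.3) was fitted to the whole table with TMM scaling, a filter by filterByExpr (minimum count 10, minimum total 15; 22153 genes tested) and robust quasi-likelihood tests. A model with 1 mean per group (4 residual degrees of freedom) gave the KO contrasts in SSC and BCSP and their difference, an additive model (5) the genotype and cell type effects, and an additive model with round (4) the round effect. The additive models treat SSC and BCSP libraries as independent. P-values were Benjamini-Hochberg adjusted over all genes tested, with 0.05 as threshold, and SE was taken from the fold change and its F statistic. CPM are scaled by TMM, log2 CPM used a prior count of 2, and 1 CPM stood for 110.697 to 143.414 counts. SD values describe the spread between libraries, and SE values include the spread between libraries that the fit estimated. Locus ratios were compared by exact permutation. Exon lengths came from GENCODE M21, which shares the build, and sequences from RefSeq.

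In each comparison the text names the members past the threshold, otherwise the 5 of lowest p on each side, and 10 leading genes of the loci. The members and lists were chosen with earlier results of these data known. Alternatives were RLE scaling, DESeq2 1.42.0, limma-voom (limma 3.58.1), no filter, leaving out each library, a replicate block, a length offset, and fits without the BCSP libraries of round 2, on SSC or BCSP alone, or on the compared groups alone. Within groups the 2 libraries differed far beyond sampling noise (chi-square per degree of freedom 103 to 255), so none is a copy of another. The fit was tested before use on simulated counts with planted changes larger than those of the members here. The simulation held no length trend and no outlying library, so it does not show how the fit handles changes of this size in these libraries.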

Additional observations from a re-analysis of the deposited data

Results flagged for a closer look

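In 80 sets of 4 libraries (each member and each locus ratio, in KO and in WT), 6 held a library whose gap to its neighbour took up more than 0.829 of the whole range. Chance alone flags about 1 in 20 such sets, which is 4.0 of 80. All 6 were in WT. WT BCSP library 2 stood apart in 3 of them, with 196.138 CPM for Ndn, 67.1829 CPM for Sgce and a log2 ratio of Dlk1 over Meg3 of 2.86. It is the library whose values fell with transcript length. WT SSC library 2 stood apart with 831.927 CPM for Igf2 and 314.487 CPM for Cdkn1c, and WT SSC library 1 with 2.864 CPM for Zrsr1.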

How the results depend on the processing

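No imprinted gene passed for genotype within SSC or within BCSP, or for the interaction, under any alternative run. Over both cell types, dropping the filter on low counts gave 3 (Meg3, Rtl1 and Ndn, edgeR adjusted p 0.0278, 0.0244 and 0.0445), against 0.706% of all genes. Fits without the filter counted the spread as better known, so their calls may be too many. For SSC against BCSP, DESeq2 and edgeR without a filter gave 1 each (Magel2), against 0.176 and 0.199% of all genes. For round 2 against round 1, the length offset gave 3, against 3.79% of all genes, and DESeq2 5, against 5.09%. SSC libraries alone gave 12, against 9.07%, with the limit given above for that fit. Leaving out WT BCSP library 2 gave 14, against 17.1%. RLE scaling gave 1 and edgeR without a filter 2. Leaving out another single library gave 0 or 1, with Dio3 without KO BCSP library 2 and Mirg without WT BCSP library 1. For these last fits no share of all genes is set beside the count, so they are not read as a result. The causes were not tested. No locus ratio could pass 0.05. Leaving out 1 library, the KO minus WT difference lay between -0.04 and 0.41 for Igf2 over H19, -1.30 and -0.20 for Dlk1 over Meg3, -1.24 and -0.40 for Cdkn1c over Kcnq1ot1, -0.55 and -0.01 for Igf2r over Airn, and -0.12 and 0.09 for Peg3 over Zim1.

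Counts of all genes past the threshold moved more. In SSC they were 1 in the fit reported, 9 by DESeq2, 4 without a filter and 0 to 1 without 1 library; in BCSP 1, 20 and 38; over both 3, 103, 234, and 1 by limma-voom; for SSC against BCSP 1, 39 and 66; for round 476, 1128 and 1062, with 840 under the length offset, 2006 in SSC alone, 54 in BCSP alone and 150 to 3794 when 1 library was left out. Without both BCSP libraries of round 2 they were 0 in BCSP, 1 over both and 10 for SSC against BCSP. Fold changes of members took the other sign in 40 of 560 values in SSC, 53 of 560 in BCSP and 57 of 525 over both. Leaving out both BCSP libraries of round 2 alone gave 16 of 35 in BCSP, 12 of 35 over both and 20 of 35 for the interaction.

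Same-numbered libraries deviated together with r of 0.559 between KO and WT SSC, 0.059 between KO and WT BCSP, 0.645 between KO SSC and KO BCSP and 0.272 between WT SSC and WT BCSP. With 1 of these under 0.1 and no label that ties the numbers to animals or litters, they were not taken to pair samples. With a replicate block, 0 members passed in each comparison, the counts of all genes were 2 in SSC, 3 in BCSP, 28 over both, 2 for the interaction (0 without it) and 2 for SSC against BCSP, and Slc38a4 had an edgeR adjusted p of 0.226.

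How depth or the number of libraries limited the calls was not tested.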
